A study of Homo sapiens with 3 samples.

Results

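The genes of the glutathione and thioredoxin systems and of their regulator NRF2 were compared between drug sensitive SupB15 cells and multidrug resistant SupB15-MR cells. They were 46 named genes in 5 roles: glutathione peroxidases (7 genes), glutathione synthesis, recycling and breakdown (7), glutathione transferases (14), glutaredoxins and the thioredoxin system (10), and NRF2, KEAP1 and target enzymes (8). Every probe set that the array's annotation gives to 1 of these genes alone was taken, which found 88 of the 54675 probe sets on the array and 45 of the 46 genes. The gene without a probe set of its own was TXNRD3, a thioredoxin reductase, whose probe sets are shared with a neighbouring gene. A filter on low values kept 80 of the 88 probe sets, and each of the 45 genes had at least 1 among them. Of the 80, 2, of GPX8 and MGST1, were kept through the SupB15 array alone and had to be lower in SupB15-MR.

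SupB15 is an established line of B cell precursor acute lymphoblastic leukemia that carries the BCR-ABL fusion. SupB15-MR cells descend from SupB15 cells that survived mitoxantrone while held in medium conditioned by the bone marrow stromal line HS-5 and were afterwards kept without drug. The series holds 1 array of SupB15 and 2 arrays of SupB15-MR, labelled as biological replicates, and all cells were grown in RPMI1640 with serum and without drug when RNA was taken. The label of replicate 2 names its cells SupB15-MR5, and the study describes the SupB15-MR arrays as separate clones of SupB15, though no label names the clone of replicate 1. The spread between the SupB15-MR arrays, where their values differ, is thus that between clones. No array of parental cells carried through the same selection was analysed here. Because SupB15 has 1 array, all tests take their spread from the 2 SupB15-MR arrays, and an exact permutation test of 1 array against 2 cannot go below p = 0.333.

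Glutathione is a tripeptide made in a pair of steps, of which the first, catalysed by glutamate-cysteine ligase (GCLC with its modifier GCLM), limits the rate. Peroxidases spend glutathione or thioredoxin on hydrogen peroxide and lipid peroxides, transferases attach glutathione to drugs and other electrophiles, and reductases return the oxidised forms with NADPH. NRF2, encoded by NFE2L2, is held low by KEAP1 and, once released, pairs with small MAF proteins on antioxidant response elements near many of these genes.

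Values are log2 expression values, so that a difference of 1 is 2-fold, and differences are given as SupB15-MR minus SupB15. A probe set was said to have risen or fallen when limma gave an adjusted p of at most 0.05 and the fold change was at least 2. By this rule 11 of 80 probe sets rose (13.8%), against 13.1% of all 46034 probe sets kept, and 10 fell (12.5%), against 9.71% of all. The 10 include the GPX8 probe set kept through SupB15 alone, and 9 fell without it. With no test, 14 were at least 2-fold higher in both SupB15-MR arrays (17.5%, against 18.3% of all) and 20 were lower by as much in both (25.0%, against 15.0% of all). With 1 probe set for each gene, that with the highest mean, 5 of 44 genes rose (11.4%, against 11.8% of 17530 genes) and 6 fell (13.6%, against 9.05%). The median difference over the 80 probe sets was -0.07, against 0 over all probe sets, with 29 above 0 and 42 below. In bulk RNA, fewer cells that express a gene and less RNA in each cell cannot be told apart.

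**Figure D1:**
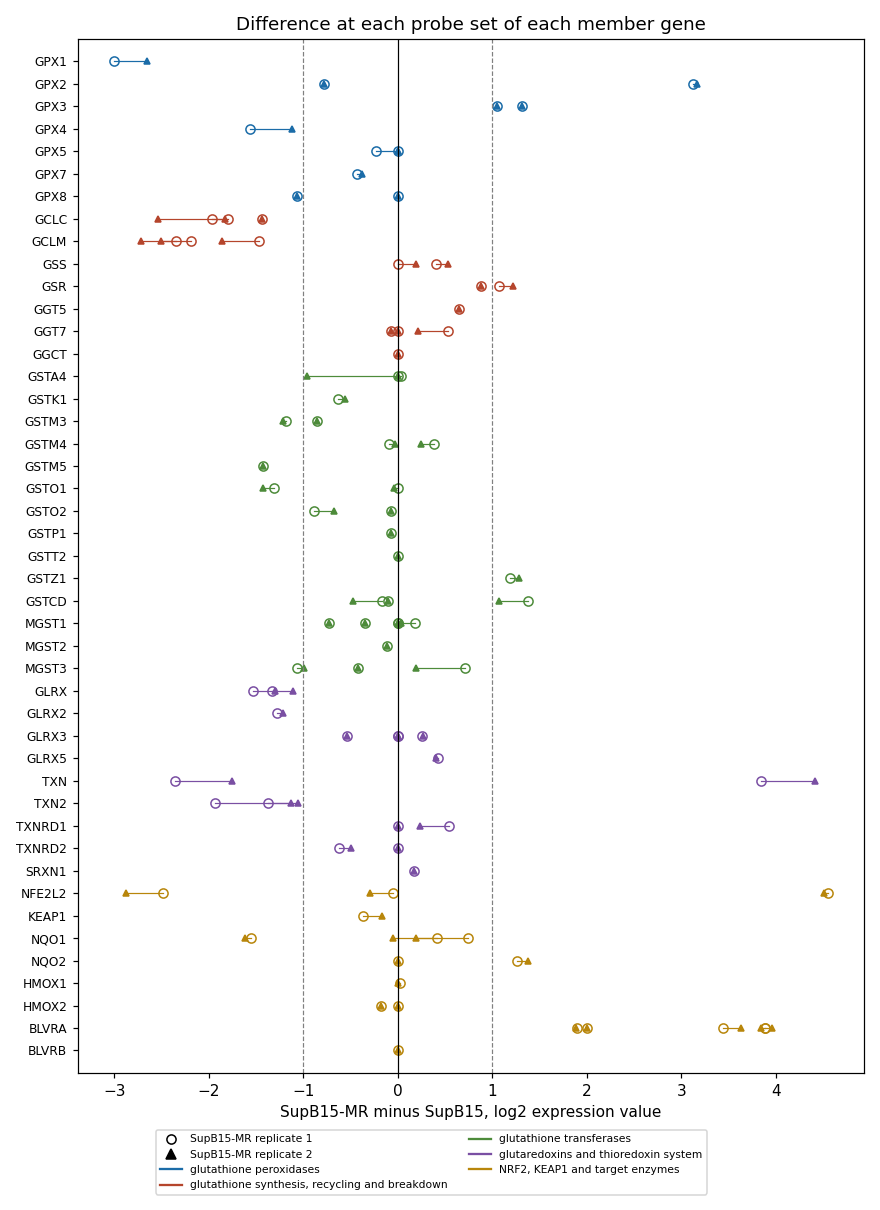
Difference in log2 expression value from the SupB15 array (x axis) at each of the 88 probe sets of 45 genes (y axis), as an open circle for SupB15-MR replicate 1 and a filled triangle for replicate 2, joined by a line and coloured by role. Dashed lines mark 2-fold. BLVRA has all 5 probe sets to the right of 2-fold, GCLC and GCLM have all 3 to the left, and TXN and NFE2L2 have probe sets on both sides.

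In 30 of the 80 probe sets (37.5%) both SupB15-MR arrays held the same value, and in 9 of these the SupB15 array held it too. Over all probe sets kept, 39.7% were identical in both SupB15-MR arrays. Such pairs have no spread, and limma gave them small p-values even where the SupB15 value differed little. Why the values are identical is not given in the sources used here, and the cause was not tested. The SE and p-value of such a pair therefore do not measure the spread between clones. These pairs were also among the probe sets from which limma estimated its shared variance. Every SE given is that of limma, drawn towards this shared variance. Where the SupB15-MR values differ, it is thus smaller than their spread alone would give. A value that is the same in every array cannot be read as a measured lack of change. Of the 21 probe sets that rose or fell, 6 were of this kind, and they are named as identical below. The arrays of SupB15-MR were nowhere 2-fold apart among the 88 probe sets, and were at least 0.5 apart at 8. The median of all probe sets was 5.08 in SupB15, 5.27 in SupB15-MR replicate 1 and 5.28 in replicate 2. Taking out this shift of 0.19 lowers each difference by that amount and leaves 10 higher and 22 lower by 2-fold in both.

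All 10 B cell precursor markers with a probe set lay above the array median in SupB15, and 8 of 10 did in each SupB15-MR array. The exceptions were VPREB1, the surrogate light chain, at 10.5 in SupB15 and 4.22 and 3.94 in SupB15-MR, and CD34, at 10.0 and then 3.82 and 3.46. Of the 10, 3 fell (VPREB1, CD34 and IGLL1, the last from 12.6 to 10.3 and 10.3) and 1 rose (MME, by 1.54). Over all genes, 9.05% fell and 11.8% rose. EBF1 read 12.3, 11.1 and 10.6, and its other probe sets went both ways. THY1, of the stromal list, read 8.14, 5.15 and 4.69. Of the T cell, myeloid, stromal and erythroid markers, 2 of 5, 2 of 6, 3 of 8 and 2 of 2 lay above the median in SupB15, and at most 1 of each list did in either SupB15-MR array. Of the myeloid markers, LYZ rose from 3.07 to 4.29 and 4.27 (1.21, limma adjusted p = 0.00669), MPO read 6.18, 8.20 and 7.30, and CSF1R read 6.47, 4.38 and 3.97. These LYZ values lay below the median of each array. At their other probe sets, LYZ read 2.46 in all 3 arrays and MPO read 5.43, 5.81 and 5.43. The 3′ minus 5′ difference of the ACTB control probe sets came to 0.80 in SupB15 and to 2.59 and 2.43 in SupB15-MR, while that of GAPDH was 0.10, -0.09 and -0.11. The part that these differences have in the results was not tested.

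Promoter sequence is shown for 3 genes whose probe sets all differed in 1 direction, in RefSeq windows (GRCh38.p14) of 250 bases before to 50 after each start. Windows were found for 37 of the 46 genes. The core of the antioxidant response element, TGACNNNGC, was searched on both strands. It was in 10 of 53 member windows (18.9%) and in 13.3% of all windows, and in 9 of 37 member genes (24.3%) and 16.1% of all genes. Member windows also had a median GC content of 63.3%, against 58.7% in all. The 250 bases before the start follow for GCLM (chr1:93909431-93909680, minus strand) and GCLC (chr6:53545102-53545351, minus strand), whose probe sets all read lower in SupB15-MR, and for BLVRA (chr7:43758430-43758679, plus strand), whose probe sets all read higher. Each is written 5′ to 3′ on the gene's strand, and capitals mark the motif on either strand.
GCLM: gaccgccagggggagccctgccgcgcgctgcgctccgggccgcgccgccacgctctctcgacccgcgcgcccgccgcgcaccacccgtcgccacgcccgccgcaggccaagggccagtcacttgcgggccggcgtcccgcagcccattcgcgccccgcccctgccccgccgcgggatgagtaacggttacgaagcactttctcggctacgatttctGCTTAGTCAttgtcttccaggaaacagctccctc
GCLC: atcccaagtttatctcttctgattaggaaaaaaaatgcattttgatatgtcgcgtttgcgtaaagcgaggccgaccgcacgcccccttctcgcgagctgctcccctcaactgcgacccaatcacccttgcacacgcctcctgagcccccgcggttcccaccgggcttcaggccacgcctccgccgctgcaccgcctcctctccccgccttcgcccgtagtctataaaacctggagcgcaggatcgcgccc
BLVRA: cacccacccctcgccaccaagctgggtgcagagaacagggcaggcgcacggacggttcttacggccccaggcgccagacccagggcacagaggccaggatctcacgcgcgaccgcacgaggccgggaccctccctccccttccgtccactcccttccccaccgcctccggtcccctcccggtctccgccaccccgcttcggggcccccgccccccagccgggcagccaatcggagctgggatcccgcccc
GCLM held the motif as TGACTAAGC on the opposite strand, in the stretch that begins, on the gene's strand, at position -34 from the start. These letters were not in the windows of GCLC or BLVRA. Sequence further upstream of the starts was not searched, so these genes may still hold the motif there.

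The other members with the motif before the start included GPX2, whose probe sets differ in direction, genes with a probe set that fell (GSTM5 and GSTO1) and genes with no probe set 2-fold apart (GSTP1, TXNRD1 and KEAP1). Each is shown with 20 bases on either side, 5′ to 3′ on the gene's strand, at chr14:64942839-64942887 (minus strand) for GPX2, chr1:109712072-109712120 (plus) for GSTM5, chr10:104254646-104254694 (plus) for GSTO1, chr11:67583726-67583774 (plus) for GSTP1, chr12:104215660-104215708 (plus) for TXNRD1 and chr19:10502774-10502845 (minus) for KEAP1.
GPX2: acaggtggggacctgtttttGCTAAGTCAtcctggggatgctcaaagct
GSTM5: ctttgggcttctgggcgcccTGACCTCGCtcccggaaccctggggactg
GSTO1: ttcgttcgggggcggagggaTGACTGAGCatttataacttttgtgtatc
GSTP1: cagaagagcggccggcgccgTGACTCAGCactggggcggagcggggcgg
TXNRD1: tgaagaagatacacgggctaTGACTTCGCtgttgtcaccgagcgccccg
KEAP1: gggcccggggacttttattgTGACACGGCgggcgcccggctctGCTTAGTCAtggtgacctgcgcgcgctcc
KEAP1 holds the motif at 2 places in this stretch, and GSTO1 and TXNRD1 hold it at further places that are not shown. The GSTP1 form, TGACTCAGC, contains the AP-1 site TGACTCA. A match of letters is not a binding site.

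Of the glutathione peroxidases, 3 of 9 probe sets rose, and 1 that fell passed the filter through SupB15 alone. Over all probe sets kept, 13.1% rose and 9.71% fell, and these shares stand behind the counts of every role. GPX1, the abundant cytosolic enzyme that reduces hydrogen peroxide, read 10.6 in SupB15, 7.60 in SupB15-MR replicate 1 and 7.95 in replicate 2. Both SupB15-MR arrays lay far below SupB15, by -2.83 on average (SE 0.27), but limma gave an adjusted p of 0.0574, short of the threshold. GPX4, which reduces lipid peroxides in membranes, read 10.6, 9.05 and 9.49, a difference of -1.34 (SE 0.33, limma adjusted p = 0.153). For GPX4 too, both SupB15-MR arrays were below SupB15 without passing the test.

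GPX2, the gastrointestinal peroxidase, was read by a pair of probe sets that differed in direction. At 239595_at it rose from 3.64 in SupB15 to 6.77 and 6.81 in SupB15-MR, by 3.14 (SE 0.03, limma adjusted p = 0.00500). At 202831_at it read 5.25 in SupB15 and 4.46 in both SupB15-MR arrays, a difference of -0.79 that is under 2-fold. Which of them stands for the gene therefore sets its direction. GPX3, the secreted plasma peroxidase, rose at both of its probe sets, from 4.53 to 5.84 at 201348_at and from 4.35 to 5.40 at 214091_s_at, with the SupB15-MR arrays identical. These rises of 1.32 and 1.05 (limma adjusted p = 0.000645 for each) start from SupB15 values below the array median. GPX8, a peroxidase of the endoplasmic reticulum, read 4.11 in SupB15 and 3.04 in both SupB15-MR arrays at 227628_at. The SupB15-MR values are below the filter value of 3.47, so this probe set was kept through SupB15 alone and could be tested only as lower in SupB15-MR. The remaining peroxidases moved little: GPX7 differed by -0.41 and the epididymal enzyme GPX5 by -0.11.

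In glutathione synthesis, recycling and breakdown, none of 15 probe sets rose and 3 fell, all in the ligase. GCLC, the catalytic subunit of glutamate-cysteine ligase, read lower in SupB15-MR at all 3 of its probe sets. At 202922_at it fell from 7.08 in SupB15 to 5.12 and 5.25, by -1.90 (SE 0.10, limma adjusted p = 0.0325). At 1555330_at it fell from 5.71 to 4.27 in both SupB15-MR arrays, by -1.44. At 202923_s_at it read 8.48, 6.68 and 5.93, and this difference, of -2.17 (SE 0.57), was 2-fold in both arrays but had an adjusted p of 0.161 in limma. The SupB15-MR arrays lay 0.75 apart there.

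GCLM, the modifier subunit of the same ligase, was likewise lower at all 3 probe sets. At 203925_at it fell from 8.73 to 6.38 and 6.22, by -2.43 (SE 0.11, limma adjusted p = 0.0291). At 236140_at it read 7.34, 5.15 and 4.62, a difference of -2.45 (limma adjusted p = 0.0991), and at 234986_at 6.20, 4.73 and 4.34, a difference of -1.66 (limma adjusted p = 0.109). No SupB15-MR value of either subunit reached the SupB15 value of the same probe set.

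The other genes of this role did not fall. GSR, the reductase that returns oxidised glutathione to its reduced form, read 8.06, 9.13 and 9.28 at 205770_at, a difference of 1.14 (SE 0.11, limma adjusted p = 0.0590). At its other probe set GSR read 8.51 and then 9.39 in both SupB15-MR arrays, a difference of 0.87 that is under 2-fold. GSS, the synthetase of the second step, differed by 0.47 and 0.10. Among the genes that break glutathione down, GGT5 differed by 0.64, GGT7 by -0.07 to 0.37, and GGCT read 9.33 in all 3 arrays.

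**Figure D2:**
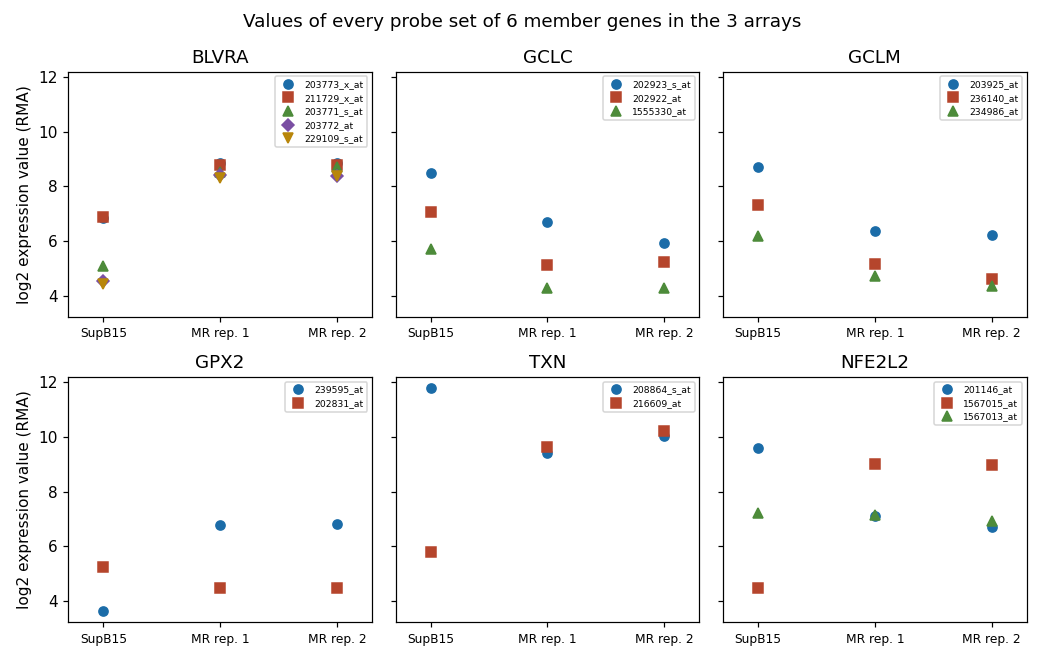
Log2 expression value (y axis, RMA) in each of the 3 arrays (x axis) for every probe set of BLVRA, GCLC, GCLM, GPX2, TXN and NFE2L2, with 1 marker for each probe set. BLVRA is higher and GCLC and GCLM are lower in SupB15-MR at every probe set, whereas TXN and NFE2L2 each have 1 probe set that is higher (by 4.13 and 4.53) and 1 that is lower (by -2.06 and -2.69).

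Of the glutathione transferases, 1 of 22 probe sets rose and 4 fell, and the median difference was -0.11. GSTZ1, maleylacetoacetate isomerase of tyrosine breakdown, rose from 6.16 in SupB15 to 7.34 and 7.43 in SupB15-MR, by 1.23 (SE 0.07, limma adjusted p = 0.0344). GSTM3, of the mu class, fell at 235867_at from 5.13 to 3.94 and 3.91, by -1.20 (SE 0.02, limma adjusted p = 0.0112), and differed by -0.86 at its other probe set. GSTM5, of the same class, fell from 4.95 to 3.52 in both SupB15-MR arrays. The SupB15-MR values of both genes are close to the filter value, and the mu class genes are similar enough in sequence that probes may be shared among them. GSTM4 differed by 0.32 and -0.06 at its probe sets.

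GSTO1, an omega class enzyme with thioltransferase activity, fell at 1557915_s_at from 10.3 to 8.97 and 8.86, by -1.37 (SE 0.09, limma adjusted p = 0.0398). At 201470_at the same gene read 10.7 in all 3 arrays. MGST3, a microsomal transferase, fell at 201403_s_at from 9.16 to 8.10 and 8.17, by -1.03 (SE 0.05, limma adjusted p = 0.0322), with replicate 2 just short of 2-fold. Its other probe sets differed by -0.42 and 0.45. GSTCD, which carries a transferase-like domain, read 6.36, 7.75 and 7.43 at 1554518_at, a difference of 1.23 (limma adjusted p = 0.117), and differed by -0.10 and -0.32 at the other two.

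The remaining transferases were not 2-fold apart in both SupB15-MR arrays at any probe set. GSTP1, the pi class enzyme often studied in drug resistance, read 9.83 in SupB15 and 9.76 in both SupB15-MR arrays. GSTK1, of mitochondria and peroxisomes, differed by -0.60 and MGST2 by -0.12. GSTO2, the other omega class enzyme, differed by -0.07, and by -0.78 at a probe set that did not pass the filter. GSTT2 read 4.38 in all 3 arrays, and MGST1 had 1 of 5 probe sets above the filter. At GSTA4, which handles the lipid peroxidation product 4-hydroxynonenal, the SupB15-MR arrays lay furthest apart of all members, at 4.77 and 3.78, with SupB15 at 4.74.

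Of the glutaredoxins and the thioredoxin system, none of 16 probe sets rose and 1 fell, while 6 lay 2-fold or more below SupB15 in each SupB15-MR array and 1 above it. By that measure, 15.0% of all probe sets kept were lower and 18.3% higher. GLRX2, a glutaredoxin found in mitochondria, fell from 9.76 to 8.48 and 8.54, by -1.25 (SE 0.05, limma adjusted p = 0.0255). GLRX, the cytosolic glutaredoxin that removes glutathione from proteins, read 11.1, 9.61 and 9.84 at 209276_s_at and 10.4, 9.08 and 9.31 at 206662_at. Both of its probe sets were lower in both SupB15-MR arrays, by -1.42 and -1.22, with adjusted p-values of 0.0755 and 0.0844 in limma. The glutaredoxins of iron-sulfur cluster assembly moved less, with -0.53 to 0.26 for GLRX3 and 0.41 for GLRX5.

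TXN, the cytosolic thioredoxin, was read in opposite directions. At 208864_s_at it read 11.8 in SupB15 and 9.42 and 10.0 in SupB15-MR, a difference of -2.06 (SE 0.46, limma adjusted p = 0.137). At 216609_at it read 5.79, 9.64 and 10.2, a difference of 4.13 (SE 0.43, limma adjusted p = 0.0636). Neither passed the test. TXN2, the mitochondrial thioredoxin, read 8.88, 7.50 and 7.82 at 209077_at and 8.44, 6.51 and 7.31 at 209078_s_at. Both differences of TXN2, -1.22 and -1.53, were 2-fold in both arrays and had limma adjusted p-values of 0.120 and 0.249.

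The reductases of thioredoxin did not share these lower values. TXNRD1, the cytosolic reductase, read 10.6, 11.1 and 10.8, a difference of 0.39 (limma adjusted p = 0.376). TXNRD2, the mitochondrial reductase, differed by 0 and -0.56, and SRXN1, which restores overoxidised peroxiredoxins, by 0.17.

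Of NRF2, KEAP1 and the target enzymes, 7 of 18 probe sets rose and 1 fell, against 13.1% and 9.71% of all probe sets kept. Of the 7, 5 belong to BLVRA. NFE2L2, which encodes NRF2, differed in direction between probe sets. At 201146_at it read 9.59 in SupB15 and 7.10 and 6.71 in SupB15-MR, a difference of -2.69 (SE 0.29, limma adjusted p = 0.0666). At 1567015_at it rose from 4.46 to 9.01 and 8.98, by 4.53 (SE 0.03, limma adjusted p = 0.00297). At 1567013_at it read 7.21, 7.16 and 6.92, within 2-fold. The array therefore gives no single direction for NFE2L2. KEAP1, the adaptor that marks NRF2 for degradation, read 9.00, 8.64 and 8.84, a difference of -0.26 (SE 0.15).

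BLVRA, biliverdin reductase A, which makes bilirubin from biliverdin, rose at all 5 of its probe sets. At 229109_s_at it went from 4.43 in SupB15 to 8.32 and 8.39 in SupB15-MR, a rise of 3.92 (SE 0.05, limma adjusted p = 0.00725). At 203772_at it went from 4.54 to 8.43 and 8.39, a rise of 3.86 (SE 0.03, limma adjusted p = 0.00456). At 203771_s_at it went from 5.10 to 8.54 and 8.72, a rise of 3.53 (SE 0.14, limma adjusted p = 0.0248). The pair of probe sets with the suffix _x_at, which can bind other transcripts too, rose by smaller amounts. They went from 6.84 to 8.85 in both SupB15-MR arrays, a rise of 2.01, and from 6.90 to 8.80 and 8.79, a rise of 1.89 (SE 0.01, limma adjusted p = 0.00199). BLVRB, the other biliverdin reductase, read 7.30 in all 3 arrays.

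The haem oxygenases, which make biliverdin, had no probe set 2-fold apart. HMOX1, the inducible enzyme and a well known NRF2 target, read 4.23, 4.24 and 4.23, and HMOX2, the constitutive enzyme, differed by 0 and -0.18. HMOX1 lay below the median of each array, and the SupB15-MR arrays were identical at both HMOX2 probe sets. These values cannot be read as a measured lack of change. NQO1, a quinone reductase and a standard marker of NRF2 activity, fell at 201468_s_at from 6.95 to 5.39 and 5.32, by -1.59 (SE 0.05, limma adjusted p = 0.0189). Its other probe sets differed by 0.34 (7.43, 8.17 and 7.38) and 0.30 (6.18, 6.59 and 6.37), neither 2-fold. NQO2, a related reductase that uses another cofactor, rose at 203814_s_at from 7.15 to 8.41 and 8.53, by 1.32 (SE 0.09, limma adjusted p = 0.0425), and read 5.05 in all 3 arrays at its other probe set.

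**Figure D3:**
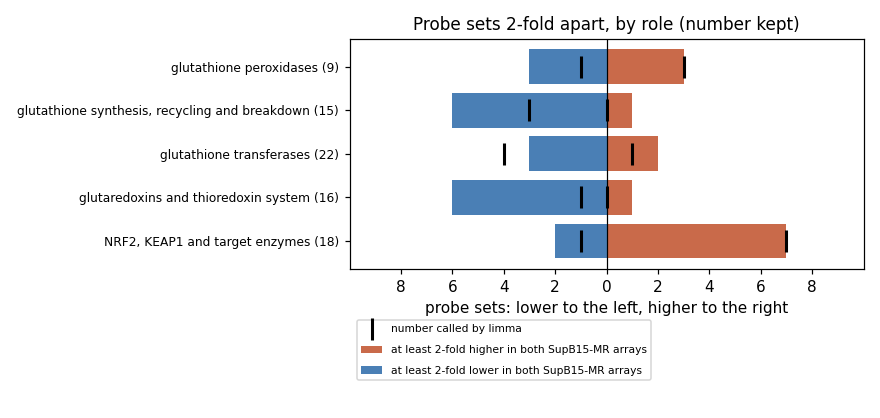
Number of probe sets (x axis, lower to the left and higher to the right of 0) at least 2-fold apart from SupB15 in both SupB15-MR arrays, for each of the 5 roles (y axis, with the number of probe sets kept), with black marks for the number that passed the limma test. Synthesis and the thioredoxin system have 6 lower and 1 higher each, and the NRF2 role has 7 higher and 2 lower. Over all probe sets kept, 18.3% were higher and 15.0% lower by this count.

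Probe sets of 1 gene were set against each other, because they bind different parts of a transcript. Among 23 members with several probe sets kept, 2 (8.7%), BLVRA and GPX3, were at least 2-fold higher at all of them, against 3.26% of 9016 such genes. At least 2-fold lower at all were 4 (17.4%), GCLC, GCLM, GLRX and TXN2, against 3.29%. Probe sets at least 2-fold apart in both directions were found in 2 (8.7%), TXN and NFE2L2, against 9.46%. These counts have no test. Of the 45 members, 23 had no probe set that rose, fell or was 2-fold apart in both arrays, and their 40 probe sets differed by -0.78 to 0.64. Probe sets that were 2-fold apart in both arrays without passing limma numbered 14, with adjusted p-values from 0.0574 to 0.249.

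Genes that supply or use the same systems were taken from 4 further lists, with 1 probe set for each gene. Of 12 tested genes for cysteine and glutathione supply and NADPH, none rose, 4 fell and the median difference was -1.17. Over all genes, with 1 probe set each, 11.8% rose and 9.05% fell, and the same shares stand behind the other lists. CBS, which makes cystathionine on the route from homocysteine to cysteine, fell from 9.26 to 4.49 and 4.20, by -4.92 (SE 0.22, limma adjusted p = 0.0270), and its other probe sets differed by -3.85 and -0.30. SLC3A2, the heavy chain of the cystine transporter and of other amino acid transporters, fell from 9.79 to 6.66 and 6.56, by -3.18 (SE 0.08, limma adjusted p = 0.0148). CHAC1, which degrades glutathione, fell from 7.92 to 4.96 and 4.65, by -3.12 (SE 0.23, limma adjusted p = 0.0459). The members of this list that fell thus include an enzyme that consumes glutathione as well as genes of its supply. TALDO1, transaldolase of the pentose phosphate pathway, fell from 11.6 to 10.2 and 10.2, by -1.37 (SE 0.01, limma adjusted p = 0.00409). SLC7A11, the cystine-specific light chain, read 9.00 in SupB15 and 9.00 and 8.16 in SupB15-MR, a difference of -0.42. Its other probe sets went both ways. The one highest in SupB15 read 9.39, 6.90 and 5.95, a difference of -2.97 (SE 0.72, limma adjusted p = 0.150), and the last differed by 0.67.

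Of 8 tested partners and regulators of NRF2, none rose and 1 fell, with a median of -0.90. MAFG, a small MAF protein that binds DNA with NRF2, fell from 8.70 to 6.88 and 6.79, by -1.87 (SE 0.06, limma adjusted p = 0.0212), and its other probe set differed by -1.54. Of 12 other NRF2 targets tested, none rose and 1 fell, with a median of 0.07. UGDH, which makes UDP-glucuronic acid, fell from 7.39 to 6.12 in both SupB15-MR arrays. By 2-fold in both arrays, 3 were higher (ABCC1, AKR1C1 and CBR1) and 3 lower (FTL, EPHX1 and UGDH). By the same count, none were higher and 6 lower among the supply genes, none and 2 among the NRF2 partners, and 1 and 6 among the thioredoxin partners. Over all probe sets kept, with every probe set of a gene counted, 18.3% were higher and 15.0% lower. AKR1C1 differed by 1.52, but its other probe sets differed by -0.43 to 0.70. ABCC1, a drug and glutathione conjugate exporter, read 7.82, 10.4 and 10.9, a difference of 2.85 (SE 0.37) that did not pass the test in limma (adjusted p = 0.0799), and its other probe set differed by 1.63. FTL read 12.4, 10.8 and 10.5, a difference of -1.73 (limma adjusted p = 0.0693). EPHX1 read 7.14, 4.77 and 5.11, a difference of -2.19 (limma adjusted p = 0.0700).

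Of 13 tested thioredoxin partners, 1 rose and 2 fell, with a median of -0.98. RRM2, a subunit of the ribonucleotide reductase that thioredoxin recharges, rose from 10.7 to 12.0 and 12.1, by 1.38 (SE 0.05, limma adjusted p = 0.0225), but differed by -0.35 at its other probe set. TXNL4A, a thioredoxin-like protein of the spliceosome, fell from 10.0 to 8.50 and 8.48, by -1.53 (SE 0.01, limma adjusted p = 0.00519), and differed by -0.30 and 0 at the other two. MSRB1, which reduces oxidised methionine, fell from 8.04 to 6.64 and 6.71, by -1.37 (SE 0.05, limma adjusted p = 0.0245).

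**Figure D4:**
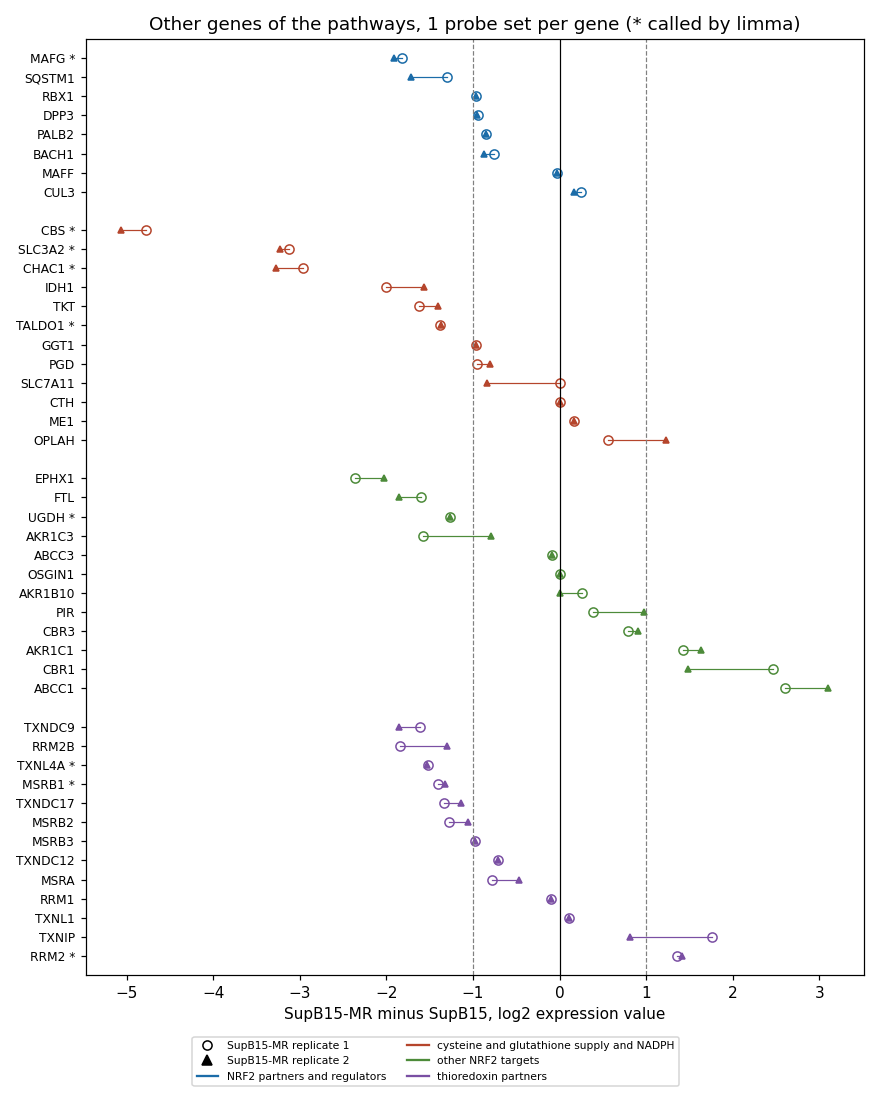
Difference in log2 expression value from the SupB15 array (x axis) for 45 further pathway genes (y axis), 1 probe set each, as an open circle for SupB15-MR replicate 1 and a filled triangle for replicate 2, coloured by list. Asterisks mark the 9 genes that passed the limma test. CBS, SLC3A2 and CHAC1 lie furthest to the left, from -4.92 to -3.12, and RRM2 is the gene on the right that passed.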

How the data were processed

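RNA of SupB15 (1 array) and SupB15-MR (2 arrays) was purified with the RNeasy Micro kit, labelled with the NuGEN Ovation system and hybridised to Affymetrix U133 Plus 2.0 arrays. Probes were summarised by the authors with RMA, and what they deposited is 1 log2 value for each probe set and array. The version of RMA, and the arrays summarised together, are not given in the sources used here. Nor is the reason why many values are identical between arrays. Precision is limited by the number of arrays, which have no sequencing depth. Of 54675 probe sets, the platform annotation, with symbols updated through RefSeq, gives 1 gene to 41097, several to 1801 and none to 11777. A probe set was removed when none of its values exceeded 3.47, the 20th percentile. The fit had 1 residual degree of freedom (limma 3.58.1, R 4.3.3), with Benjamini-Hochberg adjustment over 46034 probe sets. Simulated data, with variances unlike those of the main fit, were used to check that the fit returned known fold changes. That check does not cover the p-values. A 1-way ANOVA on the 3 arrays was an alternative, as were median centring, other filters, other choices of probe set and another variance prior.

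All 46 members are named. Values in each array are given for those with a probe set that rose, fell, or was 2-fold apart in both SupB15-MR arrays with a value above 5. The members, lists and alternatives were chosen with earlier results of these data known. Promoter windows come from RefSeq (GRCh38.p14).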

Additional observations from a re-analysis of the deposited data

How the results depend on the processing

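With each array centred on its median, 18 in place of 10 member probe sets fell, 10 in place of 6 member genes fell, and the median difference went from -0.07 to -0.26. Centring also turned the calls over all probe sets from 6021 higher and 4470 lower (57.4% higher) to 6552 and 7762 (45.8% higher). With a variance prior estimated from probe sets that differ between the SupB15-MR arrays (SD 0.169 on 17.1 degrees of freedom, against 0.00102 on 0.313), 21 member probe sets and 13 member genes fell and 14 and 6 rose, and over all probe sets 7471 fell and 9005 rose. At the probe set with the highest mean, GPX1, GPX4, GCLC, GLRX, TXN, TXN2 and NFE2L2 then passed the test as lower and GSTCD as higher. At other probe sets, TXN (216609_at, by 4.13) and NFE2L2 (1567015_at, by 4.53) passed as higher, so this prior gives them no single direction either. The study's expression analysis also covered SupB15 cells held in conditioned medium, which are not among the 3 arrays. A 1-way ANOVA on the 3 arrays alone, which is thus not the study's own, called 0 member probe sets and 0 member genes in either direction. This ANOVA also called 0 over all probe sets. Without adjustment, 14 of 50 member probe sets (28.0%) and 6778 of 27745 in all (24.4%) were 2-fold apart with a p of at most 0.05. This ANOVA gives no p where both SupB15-MR values are identical. Without probe sets with the suffixes _x_at, _s_at and _a_at, 5 rose and 6 fell, and 8 were higher and 12 lower by 2-fold in both arrays. The median was -0.0093 without the filter and with a filter at 5, and -0.047 to -0.027 with 1 SupB15-MR array left out. Leaving an array out leaves no residual degree of freedom and so no call. By the probe set highest in SupB15, GPX2 turned to -0.79 (limma adjusted p = 0.000645), which is under 2-fold and so did not fall by the rule. The SupB15-MR arrays are identical there, so this p-value does not measure the spread between clones. GPX1 passed the test with centring (limma adjusted p = 0.0201) and with the filter at 5 (0.0498). GLRX, TXN2 and NFE2L2 passed as lower with centring, each at its probe set with the highest mean. The other TXN2 probe set did not pass with centring (limma adjusted p = 0.127). TXN at 216609_at (3.94, limma adjusted p = 0.0266) and NFE2L2 at 1567015_at (4.34) passed as higher with centring. Averaged over its probe sets NFE2L2 differed by 0.56. Of the further pathway genes, alternatives chosen after seeing the data had 3 higher and 22 lower with centring, 5 and 18 with the other prior, and 0 and 0 by ANOVA, in place of 1 and 8. No paired analysis was possible because the SupB15 array carries no replicate number and has no partner. The cause of these changes was not tested.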

Other observations

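The probe sets that members share with another gene entered no comparison. TXNRD3, the third thioredoxin reductase, shares both of its probe sets with TXNRD3NB: 221906_at read 4.53 in all 3 arrays, and 59631_at read 3.23 in SupB15 and 3.06 in both SupB15-MR arrays. NFE2L2 shares 1567014_s_at with CSNK2A1, and it read 7.67 in SupB15 and 7.91 in both SupB15-MR arrays.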
